A study of Homo sapiens with 3 samples.

Results

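HEK293T cells that stably carried the TRAF7 G536S mutant were compared with HEK293T cells that stably carried wild-type TRAF7, gene by gene. Probe sets that name 1 gene in the platform annotation were used. The probe set with the highest mean stood for each gene, and genes were kept where the mean over the 3 arrays of the series was at or above the median of all genes (1.21 on the log2 scale). This left 11198 of 22395 genes, 10075 of them protein-coding. At the edge of this filter, HSPE1P22 lay just inside with a mean of 1.2129 and C16orf54 just outside with 1.2128.

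The series holds 3 arrays: HEK293T with the empty pCDF1 vector, with pCDF1-TRAF7 wild type and with pCDF1-TRAF7 G536S, 1 array for each. HEK293T is an established human embryonic kidney line with SV40 large T antigen, and its name is written HEK239T in one field of the labels. All 3 cultures were proliferating asynchronously, were infected with lentivirus and were kept in puromycin; the labels do not say whether each stable line is a clone or a pool. Every group keeps the cell's own TRAF7 gene. With 1 array a side there is no replicate check, no standard error and no p-value, and differences between cultures, RNA preparations and arrays cannot be told apart from those between constructs. Values below are log2 intensities as deposited, and a difference is the G536S array minus the wild-type array; a difference of 1 is 2-fold. Levels of different genes come from different probes and are not set against each other.

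TRAF7 attaches ubiquitin to proteins through its RING domain and carries WD40 repeats, through which it binds partners such as the kinase MEKK3, which feeds the JNK, p38 and ERK5 cascades. Somatic missense changes in its WD40 repeats, G536S among them, are known from meningioma and from adenomatoid tumours of the genital tract. MAP kinase cascades end on AP-1 factors such as JUN and are switched off by dual-specificity phosphatases. Cholesterol synthesis genes are driven by SREBP factors, which the cell's sterol level controls.

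TRAF7 itself read 5.66 in cells with the empty vector, 8.11 in wild-type cells and 7.35 in G536S cells. Both construct arrays were thus above the empty vector array, and the G536S array was below the wild-type array by a difference of -0.76 (1.69-fold). The change in the protein and the lower TRAF7 level cannot be told apart as sources of any difference given here. Of the other 9 TRAF family and adaptor genes that passed the filter, TRAF3, an inhibitor of alternative NF-kB signalling, differed by 0.27, TRAF4 by 0.26 and TIFA, an adaptor of TRAF6, by -0.21, and none was 1.5-fold apart.

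The 2 arrays were close for most genes. The median gene differed by 0.01, the spread, estimated from absolute deviations around that median and scaled to an SD, was 0.226, and 5753 of 11198 genes (51.4%) were above 0. At least 1.5-fold higher with G536S were 243 genes (2.17%), and 203 (1.81%) were at least 1.5-fold lower. This order turned with some scalings, to 215 higher and 221 lower after quantile normalization and 216 and 237 after median centring (genes at least 1.5-fold higher and genes at least 1.5-fold lower). It did not turn after cyclic loess, where 50.4% of the 1.5-fold genes were higher. At least 2-fold apart were 30 genes in each direction (0.268% each). Protein-coding genes gave 9 genes 2-fold higher (0.0893% of 10075) and 24 genes 2-fold lower (0.238%), and at 1.5-fold 145 higher (1.44%) and 171 lower (1.7%). The 2-fold higher genes also held 10 snoRNA and 3 snRNA genes. Genes were also divided by mean level into 5 equal bins. From the lowest bin to the highest, the share 1.5-fold apart was 1.65%, 5.31%, 5.8%, 4.24% and 2.9%. The spread was widest in the third bin (0.265), with means of 2.32 to 3.54. The part of measurement noise in these counts was not tested.

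**Figure D1:**
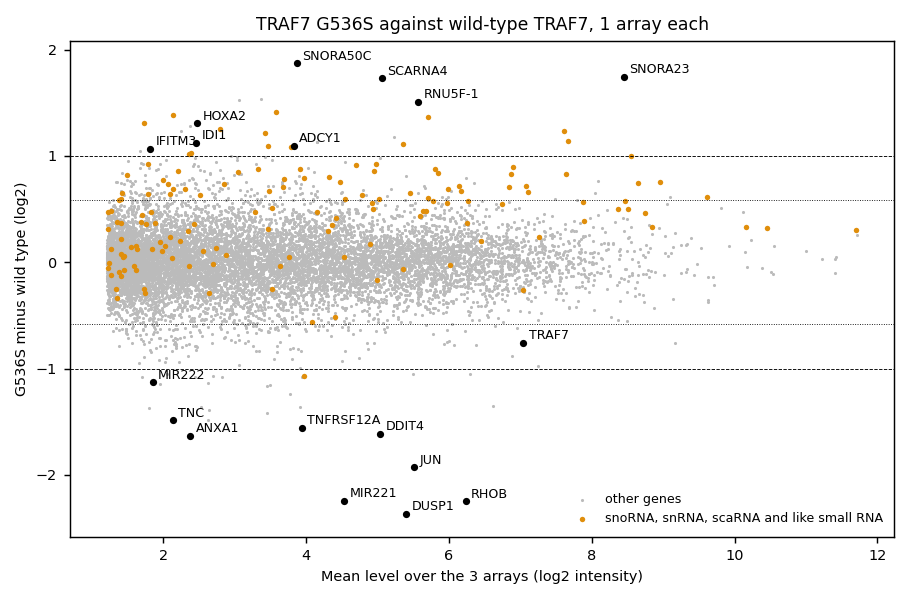
Difference between the G536S and wild-type arrays (y axis, log2) against the mean level over the 3 arrays (x axis, log2 intensity) for the 11198 genes passing the filter; dotted lines mark 1.5-fold, dashed lines 2-fold, and orange points are small RNA genes. DUSP1 (-2.37), RHOB (-2.25), MIR221 (-2.24) and JUN (-1.93) lie at the bottom, and SNORA50C (1.87), SNORA23 (1.75) and SCARNA4 (1.73) at the top.

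Among protein-coding genes, 3 of the signalling arm lay lowest with G536S. DUSP1, a nuclear phosphatase that dephosphorylates JNK, p38 and ERK, read 5.17 on the empty vector array, 6.70 on the wild-type array and 4.33 on the G536S array, a difference of -2.37 (5.16-fold). In RNA of a whole culture, fewer cells with a transcript and less of it per cell cannot be told apart. The wild-type array was the high one and the G536S array lay below the empty vector array. RHOB, a short-lived endosomal small GTPase, read 5.24, 7.85 and 5.6 in the same order (-2.25, 4.76-fold). JUN, the main AP-1 subunit, read 4.66, 6.91 and 4.98 (-1.93, 3.81-fold). For RHOB and JUN the G536S array sat close to the empty vector array, and the wild-type array alone was high.

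The stretch of 250 bases before the transcription start is shown for these 3 genes because they hold the lowest protein-coding differences. The sequences are from RefSeq (GRCh38.p14), written 5′ to 3′ on the gene's strand: chr1:58784048-58784297 (minus strand) for JUN, chr5:172771196-172771445 (minus strand) for DUSP1 and chr2:20446824-20447073 (plus strand) for RHOB. Capitals mark a cAMP response element-like match (TGACNTCA) and a CCAAT box in JUN, a TGACNTCA match and an E-box (CACGTG) in DUSP1, and CCAAT boxes (CCAAT or, on the other strand, ATTGG) in RHOB.
JUN: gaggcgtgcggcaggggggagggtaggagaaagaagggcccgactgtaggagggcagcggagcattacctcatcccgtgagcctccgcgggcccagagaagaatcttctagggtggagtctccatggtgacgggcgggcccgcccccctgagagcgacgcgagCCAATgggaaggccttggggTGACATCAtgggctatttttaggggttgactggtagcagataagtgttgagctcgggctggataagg
DUSP1: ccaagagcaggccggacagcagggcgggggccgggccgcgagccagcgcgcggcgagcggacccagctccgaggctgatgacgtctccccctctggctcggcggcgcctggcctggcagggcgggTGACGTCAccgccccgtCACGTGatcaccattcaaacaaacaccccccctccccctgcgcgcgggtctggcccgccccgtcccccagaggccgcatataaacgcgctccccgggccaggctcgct
RHOB: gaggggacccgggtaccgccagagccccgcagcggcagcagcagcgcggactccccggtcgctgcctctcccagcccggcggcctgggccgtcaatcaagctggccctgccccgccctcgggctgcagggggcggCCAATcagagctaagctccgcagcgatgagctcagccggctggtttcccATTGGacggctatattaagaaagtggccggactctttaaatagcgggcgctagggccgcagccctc
Of the 11198 genes, 8781 had a promoter in the table, and both strands of the 250 bases were searched. TGACNTCA was found in 5.7% of them, CCAAT in 35.8% and CACGTG in 9.0%. Among the 18 promoters found for the 24 protein-coding genes 2-fold lower, TGACNTCA was in 3 (DUSP1, JUN and CNTN1), CCAAT in 10 and CACGTG in 4 (DUSP1, BHLHE40, PRICKLE3 and RASGRF2). These matches describe the letters in the window and are not measured binding sites.

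Beyond these 3 genes, the 15 lowest protein-coding genes held several membrane, matrix and stress genes. ANXA1, a membrane-binding annexin, read 1.69 on the empty vector, 3.54 on the wild-type and 1.91 on the G536S array (-1.63). DDIT4, a stress-induced brake on mTORC1, read 4.89, 5.92 and 4.30 (-1.61), and TNFRSF12A, the TWEAK receptor, read 3.01, 5.19 and 3.63 (-1.56). TNC, the matrix glycoprotein tenascin-C, read 1.92, 2.98 and 1.5 (-1.49). In all 4 the wild-type array was the highest of the 3.

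The zinc finger gene ZNF492 differed by -1.48, the RAS exchange factor RASGRF2 by -1.39, the secreted protease ADAMTS1 by -1.36 and CHAC1, which degrades glutathione, by -1.36. YIF1B, a Golgi transport protein, read 6.96, 7.12 and 5.77 (-1.35). BHLHE40, a repressor of the circadian clock, read 3.79, 3.91 and 2.76 (-1.16). In YIF1B and BHLHE40 the empty vector and wild-type arrays were close and the G536S array alone was low, the reverse of the pattern of RHOB and JUN. SGPP1, a sphingosine-1-phosphate phosphatase, read 3.84, 4.35 and 3.11 (-1.24), and GALNT6, which starts mucin-type O-glycans, read 1.59, 2.70 and 1.56 (-1.14).

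Of the 15 highest protein-coding genes, 9 were at least 2-fold higher. HOXA2, a homeobox factor of hindbrain patterning, read 2.82 on the empty vector, 1.65 on the wild-type and 2.96 on the G536S array (1.31, 2.47-fold). MTARC1, a mitochondrial amidoxime-reducing enzyme, read 1.87, 1.81 and 3.05 (1.24). IDI1, which isomerises isopentenyl diphosphate, read 2.19, 2.04 and 3.16 (1.12). In HOXA2 the wild-type array alone was low, whereas in MTARC1 and IDI1 the G536S array alone was high.

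PLEKHJ1 differed by 1.13, the adenylate cyclase ADCY1 by 1.10, the interferon-induced membrane protein IFITM3 by 1.07, KRCC1 by 1.04 and TDRKH, a Tudor domain protein of the piRNA pathway, by 1.00. The levels of IFITM3 were 2.11, 1.13 and 2.19, so it too was low in the wild-type array alone. UIMC1, a ubiquitin-binding subunit of the BRCA1-A complex, differed by 1.18 on its chosen probe set and by -0.12 on its other one. AP5B1 (0.98), the histone gene H2BC26 (0.98), the matrix protein nephronectin NPNT (0.95) and the mitochondrial ribosomal protein MRPS12 (0.95) followed. On the empty vector, wild-type and G536S arrays, AP5B1 read 3.81, 2.74 and 3.73, H2BC26 read 5.28, 4.42 and 5.4 and MRPS12 read 2.99, 2.14 and 3.08. In AP5B1, H2BC26 and MRPS12 the wild-type array alone was thus low. The actin-binding CORO1A (0.93) and ATXN7L3 (0.92), of the SAGA deubiquitinase module, completed the 15. CORO1A was also low in the wild-type array alone. In PLEKHJ1, ADCY1, KRCC1, TDRKH and ATXN7L3 the empty vector array lay between the wild-type and G536S arrays. NPNT read 1.18, 1.19 and 2.13, so it passed the filter only through the G536S array.

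**Figure D2:**
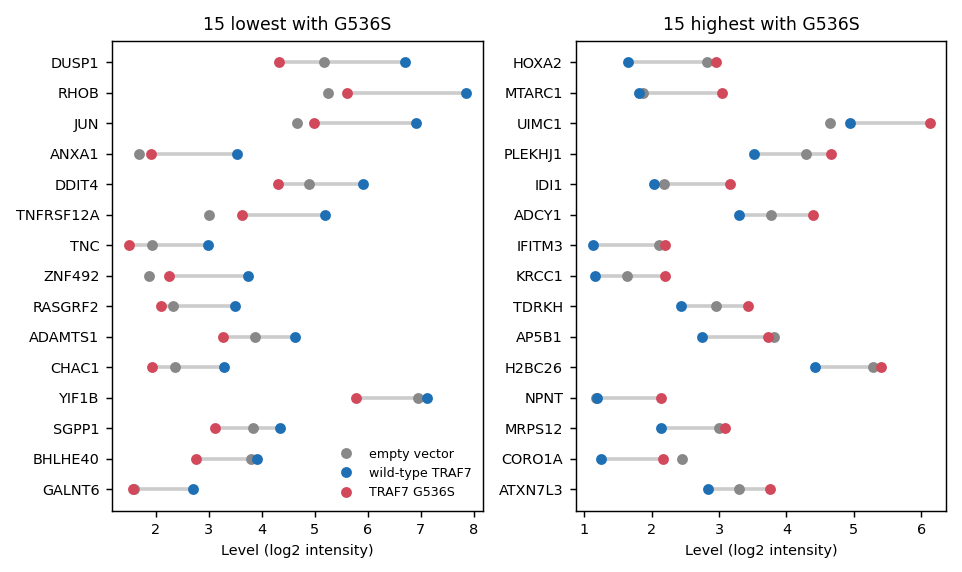
Levels (x axis, log2 intensity) of the 15 protein-coding genes lowest with G536S (left) and the 15 highest (right), 1 point for each of the 3 arrays; the grey bar joins wild type and G536S. For RHOB the wild-type point (7.85) stands apart from the other 2 (5.24 and 5.6), and for YIF1B the G536S point (5.77) stands apart (6.96 and 7.12).

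The empty vector array gives each construct a reference. At least 1.5-fold higher than the empty vector were 5.42% of genes with wild type and 6.07% with G536S, and 1.79% and 2.08% were lower; these comparisons share the 1 empty vector array. DUSP1, DDIT4, ADAMTS1, MIR221 and the 5S RNA copy RN5S132 lay at least 1.5-fold from it on opposite sides. ADAMTS1 read 3.87 on the empty vector, 4.62 on the wild-type and 3.26 on the G536S array.

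The other genes of the MAP kinase arm were read from lists. Of the 11 dual-specificity MAP kinase phosphatases, 7 passed the filter, their median was -0.42, and 1 of 7 was above 0. At least 1.5-fold lower were DUSP1, DUSP8 (2.24 with wild type, 1.59 with G536S, -0.65) and DUSP14 (4.45 and 3.82, -0.63), 3 of 7 against 1.81% of all genes, and none was higher. DUSP1 was already named for its difference in these data, so its place in this count is no separate support. On the empty vector array DUSP8 read 1.78 and DUSP14 read 3.7. DUSP16, which acts on JNK, differed by -0.42, and DUSP7, DUSP9 and DUSP2 by 0.10, 0.00 and -0.04. Over all 11 measured members, low ones included, the median was -0.07.

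AP-1 and immediate early genes, the first genes a growth signal induces, had a median of -0.18 over 18 genes that passed, with 4 above 0. JUN and FOSL1, its partner FRA1 (2.29 and 1.62, -0.67), were 1.5-fold lower, against 1.81% of all genes, and none was 1.5-fold higher. JUN was already named for its difference in these data. FOSL1 read 1.38 on the empty vector array. The transcription factor MYC differed by -0.58 (6.16 and 5.58), KLF10 by -0.44, JUNB by -0.34, IER5 by -0.31 and JUND by -0.21, while ATF3 (0.03), FOSB (0.01) and their activator SRF (0.01) were level. FOS read 0.98, 0.93 and 0.79, under the filter.

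The kinases upstream showed no common shift: the median of 24 MAP kinase cascade kinases was 0.00, and 12 were above 0. MAP2K5, the kinase of ERK5, was the only one 1.5-fold apart (2.16 and 1.55, -0.60), and it read 1.52 on the empty vector array. MAP3K5, also called ASK1, differed by -0.44 and JNK2, encoded by MAPK9, by -0.39, whereas the JNK kinase MAP2K4 differed by 0.50 and MAP3K3, which encodes the TRAF7 partner MEKK3, by 0.26. KLF factors and other ERK5-linked genes had a median of -0.03 over 10 genes. Among them KLF6 (4.52 and 3.52, -0.99) and ADAMTS1 were 1.5-fold lower and KLF11 was higher (3.29 and 4.05, 0.75). On the empty vector array KLF6 read 3.69 and KLF11 read 3.65. Of all genes, 1.81% were 1.5-fold lower and 2.17% higher. Of 9 ERK output genes the receptor tyrosine kinase inhibitor SPRY1 alone was 1.5-fold apart (-0.80), and CCND1, encoding cyclin D1, differed by 0.28. Its paralog CCND2 differed by -1.07 (3.32 and 2.25).

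RAS exchange factors and GAPs had a median of -0.13 over 9 genes that passed, with 2 above 0. RASGRF2 alone was 1.5-fold lower, against 1.81% of all genes, and none was 1.5-fold higher, against 2.17%. RASGRF2 was already named for its difference in these data. RASA3, a GAP, differed by -0.53 and the exchange factor SOS1 by 0.19.

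Of the cytoskeletal SRF and MRTF targets, 16 passed with a median of -0.08. The actin-binding calponin CNN2 (7.21 and 6.33, -0.88) and the focal adhesion protein ZYX (4.29 and 3.65, -0.64) were 1.5-fold lower. On the empty vector array CNN2 read 7.13 and ZYX read 4.07. Of all genes, 1.81% were 1.5-fold lower and 2.17% higher, the background for each list in this paragraph. YAP/TAZ targets had a median of -0.07 over 17 genes, with FJX1 (5.01 and 4.08, -0.93) and the stress protein GADD45A (4.57 and 3.97, -0.60) 1.5-fold lower. With the empty vector FJX1 read 4.42 and GADD45A read 4.16. Of 32 matrix genes 4 were 1.5-fold lower (1.81% of all genes) and none higher: TNC, the metalloprotease inhibitors TIMP3 (4.76 and 4.06, -0.70) and TIMP1 (6.95 and 6.35, -0.60), and fibulin FBLN1 (2.17 and 1.58, -0.59). With the empty vector TIMP3 read 4.23, TIMP1 6.63 and FBLN1 1.82. The basement membrane laminin LAMB2 differed by 0.56, and the list median was -0.02. ANXA1 and S100A10, the partner of annexin A2 (2.79 and 2.13, -0.66), were the 2 genes 1.5-fold apart among 10 annexins and S100 proteins. S100A10 read 2.2 with the empty vector. Among 9 TNF receptors that passed, TNFRSF12A alone was 1.5-fold apart, and the other 8 differed by -0.27 (TNFRSF1A) to 0.17 (CD40). The 7 NF-kB targets that passed had a median of -0.06, and none was 1.5-fold apart.

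Stress and nutrient genes were lower in part. Hypoxia-inducible genes had a median of -0.15 over 21 genes, 5 of them above 0. DDIT4, BHLHE40 and NDRG1 (2.26 and 1.5, -0.77) were 1.5-fold lower, 3 of 21 against 1.81% of all genes, and none was higher. DDIT4 and BHLHE40 were already named for their differences in these data. NDRG1 read 1.43 on the empty vector array. VEGFA, the vessel growth factor, differed by -0.55, the hypoxia factor EPAS1 by -0.42 and its relative HIF1A by 0.28. Glycolytic enzymes and glucose transporters had a median of -0.12 over 23 genes with 8 above 0, and none was 1.5-fold apart: HK2, the first enzyme, differed by -0.42, the pyruvate dehydrogenase kinase PDK1 by -0.35 and the transporter SLC2A1 by -0.33, against 0.31 for PDK3.

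In the ATF4 and amino acid response list 3 of 31 genes were 1.5-fold lower, against 1.81% of all genes: DDIT4, CHAC1 and the cystine transporter SLC7A11 (7.39 and 6.78, -0.62). DDIT4 was also counted among the hypoxia genes, and DDIT4 and CHAC1 were already named for their differences in these data. SLC7A11 read 6.7 on the empty vector array. The list median was -0.05 with 14 above 0. Of the other amino acid transporters in the list, SLC7A5 differed by -0.37, SLC7A1 by -0.33, SLC1A4 by -0.31, SLC3A2 by -0.30 and SLC1A5 by -0.21, against 0.05 for SLC6A9 and 0.02 for SLC38A2. The factor ATF4 itself differed by 0.17 and the synthetase ASNS by 0.22. The promoter of CHAC1 (chr15:40953221-40953470, plus strand, RefSeq, GRCh38.p14) is shown because it holds an amino acid response element match, TGATGNAA, here on the other strand; capitals mark it and the CCAAT boxes.
CHAC1: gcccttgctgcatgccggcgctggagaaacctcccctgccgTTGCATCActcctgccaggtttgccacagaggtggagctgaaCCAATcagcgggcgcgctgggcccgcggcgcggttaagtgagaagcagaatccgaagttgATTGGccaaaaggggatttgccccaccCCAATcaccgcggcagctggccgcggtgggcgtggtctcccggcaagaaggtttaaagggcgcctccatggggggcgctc
TGATGNAA was in 1.2% of the 8781 promoters. Unfolded protein response genes (median -0.02 over 23) and heat shock genes (-0.07 over 21) held 1 gene 1.5-fold apart between them, HSPA14, a ribosome-bound chaperone, at 0.70. NRF2 and glutathione genes had a median of 0.03 with 13 of 23 above 0. CHAC1, SLC7A11 and the haem-degrading enzyme HMOX1 (-0.60) were 1.5-fold lower, against 1.81% of all genes, and none was higher. CHAC1 and SLC7A11 were also counted in the ATF4 list. The glutathione synthesis enzyme GCLC differed by -0.50, the peroxidase GPX1 by 0.43, the peroxiredoxin PRDX1 by 0.41 and NFE2L2, which encodes NRF2, by 0.53.

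Cholesterol synthesis enzymes stood on the other side. Of 22 listed enzymes 18 were measured, all of them past the filter; their median difference was 0.45, against 0.01 for all genes, and 16 of 18 were above 0. At least 1.5-fold higher with G536S were 6, against a background of 2.17%, and none was lower. IDI1, counted among the 6, was already named for its difference in these data. The median level of the 18 was 3.91 with the empty vector, 3.69 with wild type and 4.19 with G536S, so the wild-type array was lowest and the G536S array highest.

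At the start of the pathway, ACAT2, which joins acetyl-CoA units, read 5.40, 5.00 and 5.81 (0.81) and the HMG-CoA synthase HMGCS1 read 2.74, 2.48 and 3.17 (0.70). The mevalonate kinases MVK and PMVK differed by 0.20 and 0.04, and the decarboxylase MVD by 0.51 (2.26 and 2.77). IDI1 was the highest of the list at 1.12, and FDPS, which makes farnesyl diphosphate, differed by 0.28.

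In the sterol part, SQLE, the squalene epoxidase, differed by 0.50 and LSS, which closes the ring, by 0.46. LSS and MVD read 4.96 and 3.10 with the empty vector, above both construct arrays. The demethylating enzymes MSMO1 (5.58, 5.33 and 6.04) and NSDHL (4.10, 3.74 and 4.46) differed by 0.71 and 0.72, the desaturase SC5D by 0.72 (2.35, 2.51 and 3.23), DHCR7 by 0.44 and ERG28, a scaffold of the demethylating complex, by 0.42. EBP differed by 0.17, TM7SF2 by 0.23, HSD17B7 by -0.09 and LBR, which also anchors chromatin at the nuclear lamina, by -0.26.

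**Figure D3:**
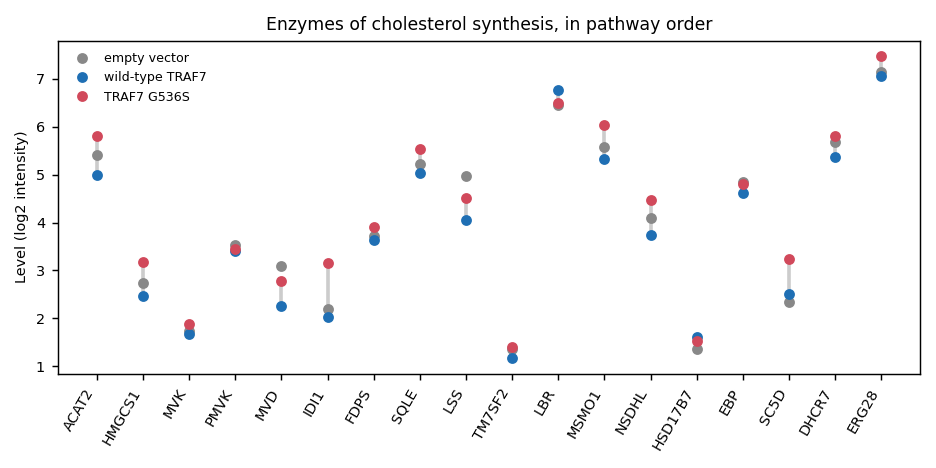
Levels (y axis, log2 intensity) of the 18 measured cholesterol synthesis enzymes in pathway order (x axis), 1 point for each array, with a grey bar from wild type to G536S. The G536S point lies above the wild-type point in 16 of 18 enzymes, the exceptions being LBR and HSD17B7.

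Promoters of HMGCS1 (chr5:43313413-43313662, minus strand), NSDHL (chrX:152830813-152831062, plus strand) and IDI1 (chr10:1056705-1056954, minus strand) are shown because the first 2 hold CCAAT boxes and IDI1, the highest member of the list, does not. They are from RefSeq (GRCh38.p14), and capitals mark CCAAT or ATTGG, which overlap once in NSDHL.
HMGCS1: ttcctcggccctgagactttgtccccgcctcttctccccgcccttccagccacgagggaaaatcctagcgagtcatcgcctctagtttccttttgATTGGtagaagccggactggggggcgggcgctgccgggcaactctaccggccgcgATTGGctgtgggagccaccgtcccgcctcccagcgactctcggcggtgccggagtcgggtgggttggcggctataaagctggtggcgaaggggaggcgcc
NSDHL: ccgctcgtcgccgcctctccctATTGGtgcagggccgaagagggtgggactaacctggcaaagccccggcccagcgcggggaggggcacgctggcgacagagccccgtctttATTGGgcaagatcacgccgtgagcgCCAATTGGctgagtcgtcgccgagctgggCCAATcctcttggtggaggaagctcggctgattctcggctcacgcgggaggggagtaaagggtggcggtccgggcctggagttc
IDI1: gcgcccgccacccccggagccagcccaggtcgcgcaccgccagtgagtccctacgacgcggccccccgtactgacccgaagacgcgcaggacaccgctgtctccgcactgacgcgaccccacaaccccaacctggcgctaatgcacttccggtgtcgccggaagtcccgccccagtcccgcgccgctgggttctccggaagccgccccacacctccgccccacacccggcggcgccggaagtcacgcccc
CCAAT was in 13 of the 16 promoters found for the list (81.2%), against 35.8% of all 8781. The sterol response element core TCACNCCAC was in none of the 16 and in 0.8% of all, which says only that these letters are not in this window. The other motifs searched were AP-1 (TGANTCA), TEAD (GGAATG), the GC box (GGGCGG), the TATA box (TATAAA) and the CArG box; in the 16 promoters these were found in 1, 3, 14, 1 and 0.

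Genes around the pathway were less uniform. Of 15 SREBP regulators and cholesterol transport genes none was 1.5-fold apart and the median was 0.00: INSIG1, an SREBP target that retains SREBP in the endoplasmic reticulum, differed by 0.48 and SREBF2, the sterol-regulated SREBP, by 0.35, while SREBF1 differed by -0.29, INSIG2 by -0.37 and the esterifying enzyme SOAT1 by -0.32. MMAB, a cobalamin enzyme gene next to MVK and singled out after its value was seen, read 2.78, 2.68 and 3.51 (0.82). Fatty acid synthesis and desaturation genes had a median of 0.10 over 21 genes with none 1.5-fold apart; FASN differed by 0.31 and ACACA, acetyl-CoA carboxylase, by 0.41. Isoprenoid and prenylation enzymes, many of which use products of the same pathway, had a median of 0.03 over 13 genes.

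**Figure D4:**
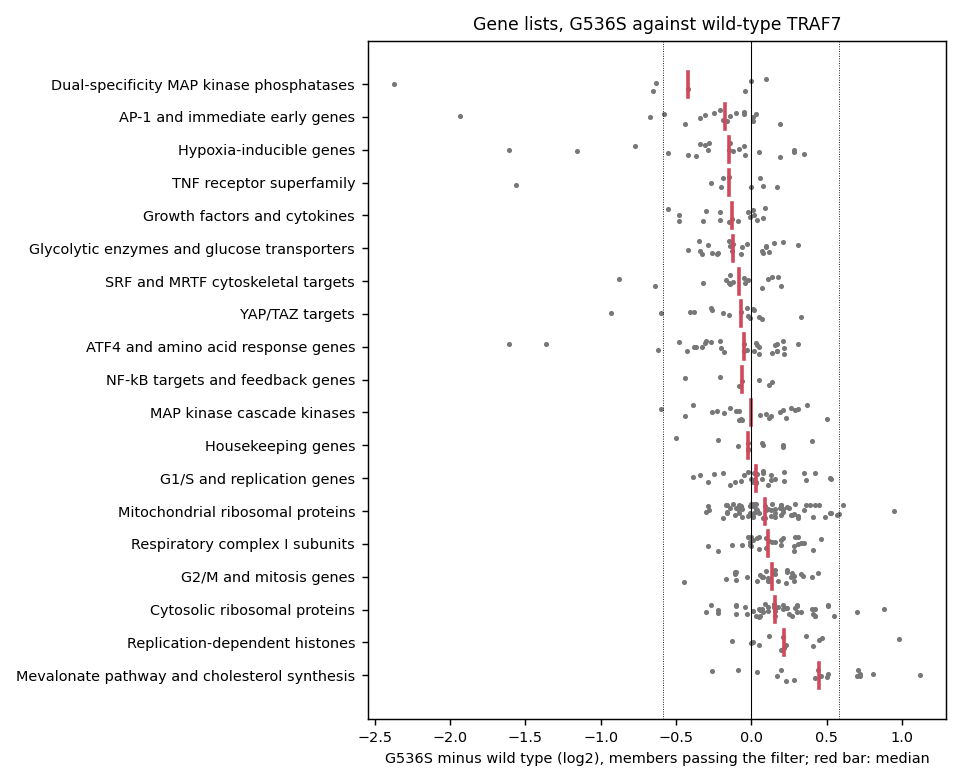
Differences between G536S and wild type (x axis, log2) of the members of 19 protein-coding gene lists that passed the filter (1 grey point each), with the list median in red and dotted lines at 1.5-fold. Of the lists plotted, dual-specificity phosphatases lie lowest (median -0.42) and cholesterol synthesis highest (0.45), while housekeeping genes centre on -0.02.

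Genes of growth and energy lay slightly above 0. Of 50 cytosolic ribosomal proteins 41 were above 0, with a median of 0.16; RPL29 (3.68 and 4.57, 0.88) and RPL12 (0.70) were 1.5-fold higher. Of 71 mitochondrial ribosomal proteins 47 were above 0 (median 0.09), with MRPS12 and MRPS11 (0.61) 1.5-fold higher. Respiratory complex I subunits had a median of 0.11 (22 of 30 above 0), complexes II and III 0.17 (7 of 10), cytochrome c oxidase 0.10 (7 of 11) and ATP synthase 0.12 (10 of 15). In these 4 lists UQCR11 (0.62), COX8A (0.62) and, in the other direction, ATP5MG (2.38 and 1.54, -0.84) were 1.5-fold apart. ATP5MG read 1.54 on the empty vector array, as on the G536S array. Among all genes, 51.4% were above 0, 2.17% were 1.5-fold higher and 1.81% were 1.5-fold lower.

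Mitosis genes had a median of 0.14 with 23 of 30 above 0 and none 1.5-fold apart; KIF2C differed by 0.44, CENPF by 0.40 and the kinase NEK2 by -0.45. G1/S and replication genes had a median of 0.03 (21 of 31 above 0). Of 14 histone genes of the replication clusters 13 were above 0, with a median of 0.22 and H2BC26 at 0.98. Over all 28 measured members the median was 0.06 with 18 above 0, and near-identical histone copies can share probe sequence. Proteasome subunits (median 0.04 over 27), aminoacyl-tRNA synthetases (-0.07 over 20) and housekeeping genes (-0.02 over 11) were near 0, with none 1.5-fold apart.

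Small RNAs that guide or carry out RNA processing were the clearest non-coding group. snoRNA genes as annotated had a median of 0.47 over 116 genes, with 44 at least 1.5-fold higher and 1 lower, against 2.17% and 1.81% of all genes. Box C/D snoRNAs, which guide ribose methylation, had a median of 0.50 with 57 of 65 above 0, box H/ACA snoRNAs, which guide pseudouridylation, 0.35 with 39 of 53 above 0, and small Cajal body RNAs, which act on spliceosomal RNAs, 0.63 with 12 of 16 above 0. Over all measured members, those near background included, the medians were 0.05 for 157 C/D, 0.20 for 61 H/ACA and 0.49 for 20 Cajal body RNAs. The filter uses the mean over the 3 arrays, the G536S array among them. Median levels of the members that passed, on the empty vector, wild-type and G536S arrays, were 3.51, 3.67 and 4.39 for C/D RNAs. They were 2.76, 3.09 and 3.26 for H/ACA and 3.59, 3.81 and 3.93 for Cajal body RNAs. SNORA50C read 2.86, 3.44 and 5.31 (1.87), SNORA23 read 7.71, 7.95 and 9.70 (1.75) and SCARNA4 read 4.34, 4.56 and 6.29 (1.73). In SNORA23 and SCARNA4 the G536S array alone was high. SNORA38B went the other way (4.33, 4.33 and 3.26, -1.07), as did SCARNA27 (4.49 and 3.93, -0.56).

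Of 12 small nuclear RNA genes that passed, 7 were at least 1.5-fold higher (2.17% of all genes) and none lower, with a median of 0.70. RNU4ATAC, RNU11, RNU12 and RNU6ATAC, all of the minor spliceosome that removes a rare class of introns, differed by 1.14, 0.83, 0.85 and 0.63. RNU4ATAC read 7.33, 7.26 and 8.41, with the G536S array alone high. RNU5F-1 differed by 1.51, the telomerase RNA TERC by 0.87 and the vault RNA VTRNA1-3 by 1.21, whereas the abundant RN7SK and RMRP differed by 0.24 and 0.33. The extraction, labelling and array of 1 culture are shared by all these RNAs, and the part of the RNA preparation was not tested.

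Genes that contain these RNAs by their coordinates, called hosts here, did not show the same shift. Position of the RNA in an intron was not checked. Of 134 snoRNA and scaRNA genes past the filter, 86 lay within exactly 1 protein-coding or long non-coding gene that also passed, by RefSeq coordinates without regard to strand. These 86 had a median of 0.48 and 34 were 1.5-fold higher, against 2.17% of all genes. Their 69 hosts had a median of 0.07, with 3 higher and 1 lower, against 2.17% and 1.81% of all genes. SNORA23 (1.75) lies in IPO7 (0.08), SCARNA4 (1.73) in KHDC4 (-0.23), SNORD37 (1.41) in EEF2 (-0.06) and SNORD63 (1.37) in HSPA9 (-0.10). On the empty vector, wild-type and G536S arrays, SNORD37 read 3.38, 2.96 and 4.38 and SNORD63 read 3.62, 6.07 and 7.44. SNORD63 was thus also higher with wild type than with the empty vector. In 5 pairs both lay above 0.5: SNORA65 (1.24) in RPL12 (0.70), SNORD60 (0.92) in SNHG19 (0.55), SCARNA3 (0.86) in COP1 (0.57), SNORD119 (0.65) in SNRPB (0.62) and SNORA24 (0.59) in SNHG8 (0.94). Among 14 snoRNA host transcripts of the SNHG kind and similar, the median was 0.20 with 12 above 0, SNHG8 (0.94) and SNHG15 (0.69) being 1.5-fold higher.

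**Figure D5:**
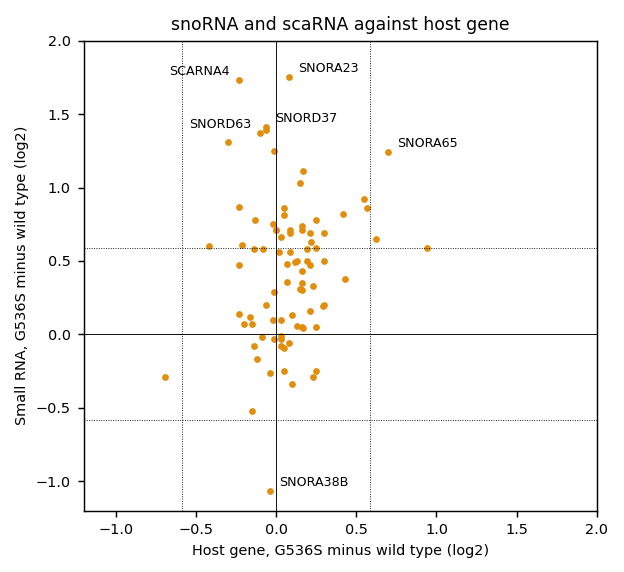
Difference between G536S and wild type of 86 snoRNA and scaRNA genes (y axis, log2) against that of their host gene (x axis, log2), with dotted lines at 1.5-fold. Most points lie above 0 on the y axis (median 0.48) while their hosts centre near 0 (median 0.07).

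microRNA precursors did not shift as a class: 168 of 1016 passed, with a median of -0.02. Of the 168, 12 were 1.5-fold higher and 8 lower, against 2.17% and 1.81% of all genes. Precursors were thus 1.5-fold apart more often than all genes, in both directions. The lowest was MIR221, which read 4.64 on the empty vector, 5.61 on the wild-type and 3.36 on the G536S array (-2.24, 4.73-fold), the third lowest difference of all genes after DUSP1 and RHOB. Its neighbour MIR222 read 1.76, 2.46 and 1.33 (-1.13, 2.19-fold). In both the wild-type array was highest and the G536S array lowest. Their hairpins lie 748 bases apart on the X chromosome. The mature 3p sequences are shown because they share a seed (bases 2 to 8, in capitals), which sets the targets of a microRNA; they are from RefSeq (GRCh38.p14, chrX:45746180-45746202 and chrX:45747036-45747056, minus strand).
hsa-miR-221-3p: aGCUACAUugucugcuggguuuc
hsa-miR-222-3p: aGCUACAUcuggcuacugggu
Of 2370 mature names in the table, these 2 alone have this seed. The arrays read the precursor region of total RNA, and mature microRNA was not measured. MIR924 differed by -1.42 and the transcript that hosts it, MIR924HG, by -0.90 (2.80 and 1.89).

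The label of the cells was checked against markers. Of 15 genes known from HEK293 and embryonic kidney, 8 passed the filter. Among them, CDH2 read 4.54, 4.62 and 4.71, the neurofilament gene NEFL 6.01, 6.26 and 5.62 and the neuropeptide GAL 5.88, 5.83 and 5.77. KRT18, PAX2, LHX1 and ENO2 were low (1.18 to 1.26, 1.5 to 1.82, 1.32 to 1.44 and 1.57 to 1.66). KRT8 and NEFM were among those under the filter. Of 16 adult nephron markers 2 passed, and the aquaporin AQP1 was under the filter. Of 16 leukocyte and 11 endothelial markers, 2 and 4 passed, and the defining markers PTPRC (0.83 to 0.95) and CDH5 (0.85 to 1.00) were near background. The leukocyte marker CORO1A (0.93) and the nephron marker LRP2 (0.73) were the members 1.5-fold higher, against 2.17% of all genes. On the empty vector, wild-type and G536S arrays, CORO1A read 2.46, 1.24 and 2.17 and LRP2 read 2.15, 1.98 and 2.72. CORO1A was thus low in the wild-type array alone. The summed linear intensities of the lists in the empty vector, wild-type and G536S arrays were 34.8, 31.3 and 31.6 for leukocyte, 24.3, 23.2 and 23.3 for endothelial, 35.3, 33.1 and 36.7 for nephron and 198.8, 230.6 and 213.6 for mesenchymal markers.

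Few genes have a second probe set to check against. Of the 11198 genes 212 had one past the filter level, and 10 of these were 1.5-fold apart on the first. The second had the same direction in 6 of the 10 and was also 1.5-fold apart in 1. DUSP1, RHOB, JUN, IDI1, TRAF7 and 364 of the 368 genes reached by the naming rule rest on 1 probe set.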

How the data were processed

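Total RNA (300 ng per the labels' protocols) of 3 HEK293T cultures was labelled with biotin and hybridised to Affymetrix arrays. The authors deposited 1 log2 intensity for each probe set, made with RMA per the submitters' processing notes. The RMA release was not given in the sources used here, nor was a genome build. The log base was inferred: the highest value, 12.57, exceeds the natural log of a 16-bit scanner's top (11.09). RMA normalizes between arrays, which can compress differences near background.

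Of 53617 probe sets, 23871 name 1 gene, 1842 several, and 27904 are unnamed here. Symbols were updated through Entrez IDs in a RefSeq table of GRCh38.p14 (22569 matched, 90 with a newer symbol; 1302 kept the old one). The probe set of highest mean stood for a gene, and genes whose 3-array mean reached the median (1.21) were kept. No test was possible with 1 array a group; 1.5-fold and 2-fold were used as descriptive limits. The counting was tested on simulated data. The number of arrays limits the precision.

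Genes were named by rule: the 15 highest and 15 lowest protein-coding genes, the 3 highest and lowest others, TRAF7, DUSP1, RHOB, JUN and IDI1, genes on opposite sides of the empty vector, and, for each of 64 lists, up to 6 members with the largest difference, with others for contrast. Other genes, CCND2, MMAB and several small RNAs among them, were chosen after their values were seen. The members and lists were chosen with earlier results of these data known. One family list and its effectors are not reported here. List values are over members passing the filter unless stated. Alternatives were the mean of probe sets, other filters, quantile normalization, median centring, cyclic loess, a floor, protein-coding genes alone and other probe sets. Python 3.11.15, numpy 2.4.6, pandas 2.3.3, R 4.3.3 with limma 3.58.1 and matplotlib 3.10.9 were used.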

Additional observations from a re-analysis of the deposited data

Results flagged for a closer look

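In 5 genes the wild-type and G536S arrays lay on opposite sides of the empty vector array, each by at least 1.5-fold. These differences share the empty vector array and were not tested. From the empty vector, DUSP1 differed by 1.52 on the wild-type array and -0.84 on the G536S array, which is the direct difference of -2.37. MIR221 differed by 0.97 and -1.27 (direct -2.24), DDIT4 by 1.03 and -0.58 (direct -1.61) and the protease gene ADAMTS1 by 0.76 and -0.61 (direct -1.36). RN5S132, a 5S RNA copy named in the older annotation only, went the other way, by -0.62 and 0.92 (direct 1.54).

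Probe sets outside the gene table also held differences. Of 954 probe sets that name several genes and passed the same filter level, 12 were at least 2-fold apart, 10 higher and 2 lower with G536S. Of 7053 unnamed probe sets past that level, 511 were at least 2-fold apart, 256 higher and 255 lower, with differences from -3.94 to 3.41. Of the 11198 named genes 0.268% were 2-fold higher and 0.268% lower, so unnamed probe sets were 2-fold apart more often. Their extremes also lay beyond those of the named genes, DUSP1 (-2.37) and SNORA50C (1.87). What these unnamed probe sets read is not known here.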

How the results depend on the processing

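Each result was recomputed under other settings. A filter at the 75th percentile of levels gave 122 (genes at least 1.5-fold higher), 99 (genes at least 1.5-fold lower), 19 (genes at least 2-fold higher) and 16 (genes at least 2-fold lower); fewer genes are counted there by construction. With protein-coding genes alone 145 and 9 genes were 1.5-fold and 2-fold higher. The higher share of the 2-fold genes was 50.0%, 46.7% after quantile normalization and 27.3% over protein-coding genes; that of the 1.5-fold genes was 54.5%, 49.3% after quantile normalization, 50.4% after cyclic loess, 47.7% after median centring and 45.9% over protein-coding genes. No scaling moved the median gene by 0.1. Of the 15 lists with a median at least 0.15 from that of all genes, 4 moved by 0.1 or more under that filter: immediate early genes to -0.37, hypoxia genes to -0.28, complexes II and III to 0.32 and H/ACA snoRNAs to 0.59. With all measured members, dual-specificity phosphatases moved to -0.07, C/D snoRNAs to 0.05, H/ACA snoRNAs to 0.20, Cajal body RNAs to 0.49 and histones to 0.06, and TNF receptors to 0.00 with the sign turned; most added members lie near background. Of the 108 named genes 1.5-fold apart, UIMC1 turned sign on its other probe set (-0.12), and 1 each fell under 1.5-fold with the mean of probe sets, quantile normalization and cyclic loess. No paired analysis was possible because each group has 1 array.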

Other observations

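Lists not described above had medians between -0.16 and 0.18. WNT targets had a median of -0.16 over 12 genes with 5 above 0, where SOX4, a developmental factor, differed by -0.47 and ZNRF3, a WNT receptor ligase, by 0.22. TGF-beta and BMP response genes had a median of -0.11 over 15 genes, with the receptor TGFBR2 at -0.45 and the inhibitor of differentiation ID1 at -0.38. Growth factors and cytokines had a median of -0.13 with 5 of 17 above 0 and none 1.5-fold apart, VEGFC and STC2 both at -0.48. HOX genes had a median of 0.18 over 20 genes with 12 above 0; apart from HOXA2, HOXD11 differed by 0.51 and HOXB4 by -0.44. NOTCH genes had a median of 0.06 over 17 with none 1.5-fold apart.

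Meningioma driver genes other than TRAF7 had a median of 0.02 over 13 genes with none 1.5-fold apart; the Hedgehog receptor component SMO differed by 0.50 and NF2, encoding merlin, by 0.29. Among ubiquitin-conjugating enzymes, with a median of 0.06 over 21 genes, UBE2S, an enzyme of the anaphase-promoting complex, was higher (0.73) and UBE2E2 lower (-0.64). Interferon-induced genes had a median of -0.04 over 14 genes; beside IFITM3 at 1.07, its close paralogs IFITM2 and IFITM1 differed by -0.45 and -0.34, and LGALS3BP by -0.65. Probes of these paralogs may share sequence. Of 326 ZNF genes 8 were 1.5-fold higher and 12 lower, against 2.17% and 1.81% of all genes, with a median of 0.00.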
